A study of Mus musculus with 12 samples.

Results

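The 6 genes described here encode the receptors for the colony-stimulating factors, Csf1r, Csf2ra, Csf2rb, Csf2rb2 and Csf3r, and the ligand Csf1. They were taken by symbol from a table of 24421 symbols, and all 6 were among the 11468 genes that passed the filter on low counts. Across 12 libraries, Csf1 was 2.04-fold higher with immune complexes in DMSO and 1.81-fold higher in iBET. Neither arm alone passed the adjusted threshold in the main fit, which had no term for mouse. With mouse as a block the DMSO arm passed. The 5 receptors were called in none of the 4 pairwise comparisons. Of all genes, 1.22% (DMSO) and 0.349% (iBET) were called for immune complexes against ovalbumin. For the drug, 31.3% (ovalbumin) and 34.8% (immune complexes) of all genes were called. Within the receptor pair Csf2rb and Csf2rb2, however, the balance differed with the drug, and Csf2rb2 supplied close to 50% of the pair's counts in DMSO and close to 39% in iBET.

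The cells were bone marrow-derived macrophages (BMDM) from wild-type C57BL/6 mice, grown for 5 days with M-CSF (the protein product of Csf1) at 100 ng/mL, with a medium change on day 3. Every group therefore carried the ligand of Csf1r in its medium, and no group was grown without it. For the last 4 h cells received ovalbumin (Ova) or immune complexes (IC) of ovalbumin with a polyclonal rabbit anti-ovalbumin antibody, and either I-BET151 at 5 µM (iBET), which blocks the acetyl-lysine pockets of BET proteins, or 5% DMSO. The labels give drug and stimulus together and the methods give the drug first. The 4 groups, DMSO Ova, DMSO IC, iBET Ova and iBET IC, held 3 libraries each, 1 from each of mice A, B and C, so that every animal is present in all groups.

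Csf1r is the receptor tyrosine kinase for M-CSF and for interleukin-34, and its signal maintains survival and proliferation of macrophages. Csf2ra is the subunit that gives the GM-CSF receptor its ligand specificity. It pairs with Csf2rb, the beta subunit shared by the GM-CSF, interleukin-3 and interleukin-5 receptors, which recruits the kinase Jak2 and activates Stat5. Mice carry a second beta gene, Csf2rb2, whose product serves the interleukin-3 receptor. Csf3r is the G-CSF receptor, best known for driving neutrophil production. BMDM are made with M-CSF, and macrophages can themselves transcribe Csf1.

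On the GRCm38 assembly, which is the mm10 build named in the labels, Csf2rb and Csf2rb2 lie on chromosome 15 and are read in opposite directions, at chr15:78325752-78353847 on the plus strand and chr15:78282507-78305721 on the minus strand. Csf1 is at chr3:107741048-107760469 (minus strand), Csf2ra at chr19:61223957-61228429 (minus strand) and Csf3r at chr4:126024550-126044440 (plus strand). Of the 5774 exonic bases of Csf1r, 873 (15.1%) are shared with exons of Hmgxb3 on the opposite strand. Whether counting used strand is not given in the sources used here.

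How far the beta genes can be told apart by reads bears on their counts, so their coding sequences were aligned. They were identical at 2503 of 2628 aligned positions (95.2%), with 125 differences. The stretch of 120 coding bases with the most differences, 22, is printed from GENCODE transcripts of GRCm38, with the differing bases in capitals. In the genome it spans chr15:78338898-78340471 in Csf2rb and chr15:78292838-78294433 in Csf2rb2, with introns left out.
Csf2rb: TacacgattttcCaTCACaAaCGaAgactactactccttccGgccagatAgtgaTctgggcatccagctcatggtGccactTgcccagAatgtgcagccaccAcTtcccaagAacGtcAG
Csf2rb2: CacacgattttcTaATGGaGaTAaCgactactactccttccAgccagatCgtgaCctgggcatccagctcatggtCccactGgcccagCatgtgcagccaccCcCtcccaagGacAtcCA

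The opposite case is a stretch in the last coding exon where 120 bases are identical in both genes, at chr15:78348577-78348696 in Csf2rb and chr15:78284752-78284871 in Csf2rb2. It is shown because it contains, in capitals, the 62 bases that RefSeq lists as the hairpin of a microRNA within each gene, Mir7676-2 in Csf2rb and Mir7676-1 in Csf2rb2.
Shared stretch: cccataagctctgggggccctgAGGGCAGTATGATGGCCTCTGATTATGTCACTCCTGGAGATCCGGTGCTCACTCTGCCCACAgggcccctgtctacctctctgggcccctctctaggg
Mir7676-1 and Mir7676-2 had equal counts in 12 of 12 libraries, from 36 to 322. Those counts corresponded to between 4.11% and 8.75% of the Csf2rb count of the same library. Of all windows of 150 bases in the Csf2rb transcript, 3.58% also occurred unchanged in Csf2rb2, and of windows of 50 bases 18.9% did.

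Start-site sequences from RefSeq (GRCm38.p6, 250 bases before to 50 after the start) were found for Csf1, Csf2ra, Csf2rb2 and Csf3r, and searched on both strands. The promoter of Csf1, whose RNA was higher with IC, is printed with its match to the kappaB consensus in capitals, at chr3:107760420-107760719 on the minus strand.
Csf1 promoter: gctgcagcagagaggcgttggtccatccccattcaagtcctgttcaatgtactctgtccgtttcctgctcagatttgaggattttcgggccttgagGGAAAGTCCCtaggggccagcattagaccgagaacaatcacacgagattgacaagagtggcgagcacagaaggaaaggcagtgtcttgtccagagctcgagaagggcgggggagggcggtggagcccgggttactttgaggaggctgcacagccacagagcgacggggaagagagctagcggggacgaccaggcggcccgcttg
That consensus was present in 4.51% of 32851 promoters of the same length and in none of the other 3. The Csf1 window also held 2 GC boxes (GGGCGG), a motif present in 35.7% of promoters. The promoter of Csf2rb2, the receptor gene with the largest drug difference, is printed with its 2 ETS cores (GAGGAA or its complement) in capitals, at chr15:78305672-78305971 on the minus strand.
Csf2rb2 promoter: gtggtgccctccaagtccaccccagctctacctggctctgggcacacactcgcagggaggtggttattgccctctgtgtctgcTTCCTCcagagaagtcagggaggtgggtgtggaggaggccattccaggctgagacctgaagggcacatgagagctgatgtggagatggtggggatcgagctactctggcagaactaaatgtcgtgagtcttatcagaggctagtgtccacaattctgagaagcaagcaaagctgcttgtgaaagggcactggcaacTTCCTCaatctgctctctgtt
An ETS core was present in 28.3% of promoters. None of the 4 windows held TATAAA (13.6% of promoters), TGANTCA (7.81%) or TTGCNNAA (10.8%), N being any base. These matches describe letters in the windows and say nothing of binding.

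Library totals ranged from 7549849 to 17387639 counts. Mouse A's library in DMSO Ova stood apart, with 77.4% of its counts on the ribosomal precursor Rn45s against 1.41% to 7.83% elsewhere, so it held 3140 counts over the 6 genes where the other 11 libraries held 12942 to 33389. Brd2 (log2 fold change 2.53 in Ova and 2.82 in IC) and Hexim1 (2.44 and 2.50), genes known to rise under BET inhibitors, were higher with iBET. The IC-inducible gene Irg1 was higher with IC in DMSO (2.94) and in iBET (3.24). All 6 of these differences passed an adjusted p of 0.05 in edgeR. The summed level of 10 macrophage markers lay between 5696 and 7686 CPM (counts scaled to the library total and TMM factor). Medians were 3395 CPM for Lyz2, 447 to 940 for Cd14, Adgre1, Itgam and Cd68, and 139 and 151 for Fcgr1 and Mrc1. Aif1 (21.4), Mertk (17.2) and Cd163 (0.638) were far lower.

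Levels of the 6 genes were compared per kilobase of exon, and the highest mean was 151 times the lowest. Csf1r was highest, with a mean of 164 CPM per kb and a range of 126 to 199 over the 12 libraries, and ranked 89 of 11468 by mean log2 CPM. Csf2ra followed with 84.4 CPM per kb (56.9 to 118), then Csf2rb2 with 55.7 (31.8 to 77.3) and Csf2rb with 44.4 (34.0 to 56.5). The range of Csf2rb2 overlapped those of Csf2ra and Csf2rb, whereas every Csf2ra library lay above every Csf2rb library, by a small margin (56.9 against 56.5). All 3 ranges lay below that of Csf1r. The order of the beta genes depends on the length used: per kilobase of the single transcripts aligned above, Csf2rb had a mean of 67.9 CPM per kb and Csf2rb2 55.7. Csf3r, with 1.89 CPM per kb (1.13 to 2.54), and Csf1, with 1.08 (0.566 to 1.86), were far lower, and their ranges overlapped.

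**Figure D1:**
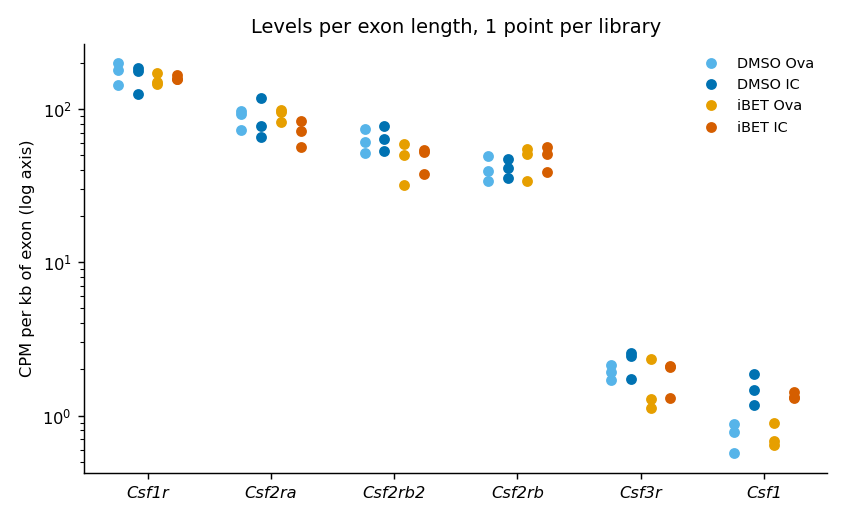
Level per kilobase of exon (CPM per kb, log axis) of the 6 genes, with 1 point per library and colours for the 4 groups. Csf1r lies between 126 and 199, Csf2ra, Csf2rb and Csf2rb2 between 31.8 and 118, and Csf3r and Csf1 between 0.566 and 2.54.

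Csf1 was the gene of the 6 with a difference between Ova and IC. In DMSO Ova it measured 4.11, 2.99 and 4.64 CPM in mice A, B and C, and in DMSO IC 6.14, 7.70 and 9.82 CPM. In iBET Ova it measured 4.71, 3.42 and 3.61 CPM, and in iBET IC 7.53, 6.88 and 6.95 CPM. Every IC library was above every Ova library, within each drug arm and across them. Within an arm, 15.3% (DMSO) and 18.9% (iBET) of all genes had groups that did not overlap. The share across both arms was not computed. Counts behind these values were small, from 8 in DMSO Ova to 141 in iBET IC, both of mouse A.

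In DMSO the mean of Csf1 was 3.91 ± 0.843 CPM with Ova and 7.89 ± 1.84 CPM with IC (SD, n = 3 each). The log2 fold change was 1.03 (SE 0.24, 95% interval 0.51 to 1.55), a fold of 2.04, with an unadjusted p of 0.00101 and an adjusted p of 0.0661 in edgeR. With mouse as a block the adjusted p was 0.0354. In iBET the means were 3.91 ± 0.695 and 7.12 ± 0.354 CPM, with a log2 fold change of 0.85 (SE 0.23, 0.36 to 1.35) and an adjusted p of 0.229. Higher values with IC were seen in 3 of 3 mice in each arm. Averaged over both drug arms, a contrast added after the data were seen, the log2 fold change was 0.94 (SE 0.17, 0.58 to 1.30) and passed with an adjusted p of 0.00817, where 2.95% of all genes were called, but without mouse B the adjusted p was 0.441 and without mouse C 0.101. When mouse A's DMSO Ova sample was omitted, the same average was 0.94 with an adjusted p of 0.0136.

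Csf1 did not differ detectably with the drug. The iBET against DMSO difference was 0.03 in Ova (95% interval -0.51 to 0.58) and -0.14 in IC (-0.61 to 0.33). The response to IC in iBET less the one in DMSO was -0.18 on the log2 scale (-0.90 to 0.54, adjusted p = 1.00). Mice B and C were lower with iBET in IC, and mouse A was higher.

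**Figure D2:**
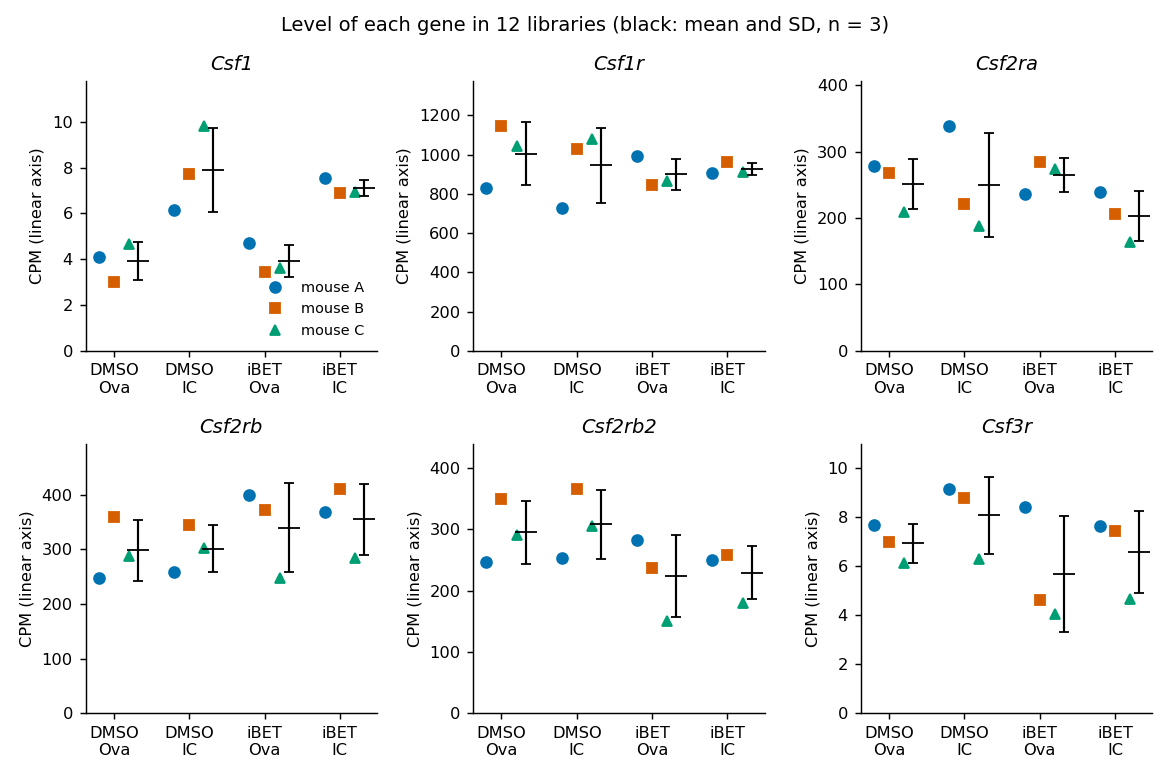
Level in CPM (linear axis from 0) of each gene in the 12 libraries, by group, with symbols for mice A, B and C and black bars for the mean and SD of 3 libraries. Csf1 in IC (6.14 to 9.82 CPM) lies above Csf1 in Ova (2.99 to 4.71 CPM), whereas the groups of the other 5 genes overlap. Of all genes, 15.3% (DMSO) and 18.9% (iBET) had IC and Ova groups that did not overlap.

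The background for these comparisons differs between stimulus and drug. Of 11468 genes tested, 1.22% were called for IC against Ova in DMSO, 0.349% for IC against Ova in iBET, 31.3% for iBET against DMSO in Ova and 34.8% for iBET against DMSO in IC. None of the 6 genes was called in any of these by edgeR with 1 term per group. With mouse as a block, edgeR called Csf1 for IC against Ova in DMSO, and more genes of the table in all. Csf1 was the 1 member with an unadjusted p under 0.05 in each IC comparison, where 11.7% (DMSO) and 7.5% (iBET) of all genes had one. No member had one in the drug comparisons, where 41.6% (Ova) and 44.4% (IC) of all genes did. DESeq2 called Csf1 with IC in DMSO (adjusted p = 0.0263). No member was called in the interaction, where 0 genes of the whole table were called by edgeR (292 had an unadjusted p under 0.05, and DESeq2 called 4). Groups that did not overlap were found for 1 of the 6 genes, Csf1, in each IC comparison, against 15.3% of all genes in DMSO and 18.9% in iBET. In the drug comparisons no member had groups that did not overlap, where 45.1% (Ova) and 48.6% (IC) of all genes did. The median absolute log2 fold change with iBET was 0.17 over the 6 genes and 0.35 over all genes in Ova, and 0.26 and 0.37 in IC.

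Csf1r, the M-CSF receptor, stayed within a narrow band. It measured 828, 1147 and 1044 CPM in DMSO Ova, 729, 1028 and 1079 in DMSO IC, 992, 847 and 863 in iBET Ova, and 908, 962 and 912 in iBET IC, for mice A, B and C. The groups overlapped in every comparison. Differences with IC were -0.09 in DMSO (95% interval -0.43 to 0.24) and 0.04 in iBET (-0.29 to 0.38), on the log2 scale.

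With iBET, Csf1r differed by -0.16 in Ova (-0.50 to 0.17, adjusted p = 0.466 in edgeR) and -0.03 in IC (-0.36 to 0.31, adjusted p = 0.909). Both intervals lie within 1 log2 unit of 0. The mice did not move alike: in mouse A, Csf1r was higher with iBET in both stimulations (0.26 and 0.32), and in mice B and C it was lower (-0.44 and -0.27 in Ova, -0.09 and -0.24 in IC). Without mouse A, the difference in Ova was -0.38 with an adjusted p of 0.0114, and the drug difference averaged over both stimulations was -0.28 with an adjusted p of 0.0061. Without mouse B these 2 differences were -0.011 and -0.00019. Each was called in 1 of 15 omissions of a library or a mouse. Hmgxb3, whose exons overlap those of Csf1r on the other strand, rose with iBET by 0.49 in Ova (adjusted p = 0.00563) and 0.57 in IC (adjusted p = 0.00146), and its part in the Csf1r counts was not tested.

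Csf2ra, the GM-CSF-specific chain, measured 278, 268 and 209 CPM in DMSO Ova, 339, 221 and 189 in DMSO IC, 237, 285 and 273 in iBET Ova, and 239, 207 and 163 in iBET IC. Its highest and lowest libraries both received IC. The DMSO IC group had the widest spread, with a coefficient of variation of 31.6%. With IC the difference was -0.01 in DMSO (-0.46 to 0.45) and -0.38 in iBET (-0.84 to 0.07, adjusted p = 0.745). Mice B and C were lower with IC in both arms, and mouse A was higher in both. Averaged over both arms the difference was -0.20 (-0.52 to 0.13), and without mouse A it was -0.39 with an adjusted p of 0.0482. That was the 1 call among 15 omissions of a library or a mouse, and without mouse C the difference was -0.094. The drug difference was 0.08 in Ova (-0.38 to 0.53) and -0.30 in IC (-0.75 to 0.16).

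Csf2rb, the shared beta chain, measured 248, 358 and 288 CPM in DMSO Ova, 258, 344 and 302 in DMSO IC, 399, 373 and 248 in iBET Ova, and 369, 411 and 285 in iBET IC. Mouse B exceeded mouse C in all 4 groups. The difference with IC was 0.01 in DMSO (-0.43 to 0.45) and 0.06 in iBET (-0.38 to 0.50). With iBET it was 0.19 in Ova (-0.25 to 0.62) and 0.24 in IC (-0.20 to 0.67), with adjusted p values of 0.523 and 0.388.

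Csf2rb2, the interleukin-3 beta chain, measured 247, 349 and 290 CPM in DMSO Ova, 253, 366 and 305 in DMSO IC, 282, 237 and 150 in iBET Ova, and 251, 258 and 179 in iBET IC. Its 2 lowest values were the iBET libraries of mouse C. With IC it differed by 0.06 in DMSO (-0.45 to 0.56) and 0.04 in iBET (-0.47 to 0.55).

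With iBET, Csf2rb2 differed by -0.41 in Ova (SE 0.23, -0.92 to 0.10, adjusted p = 0.209) and by -0.43 in IC (SE 0.23, -0.93 to 0.08, adjusted p = 0.178). Averaged over both stimulations, a contrast added after the data were seen, the difference was -0.42 (-0.78 to -0.06), a fold of 0.749, with an adjusted p of 0.0540. In that contrast 48.6% of all genes were called, so a call there would not set Csf2rb2 apart. With mouse as a block the average difference was -0.43 and passed with an adjusted p of 0.0238, and with mouse A's DMSO Ova sample omitted it was -0.51 with an adjusted p of 0.0327. Over all 15 omissions of a library or a mouse it was called in 4. It ranged from -0.69 without mouse A to -0.24 without mouse C, with adjusted p values from 0.0230 to 0.260 in edgeR.

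**Figure D3:**
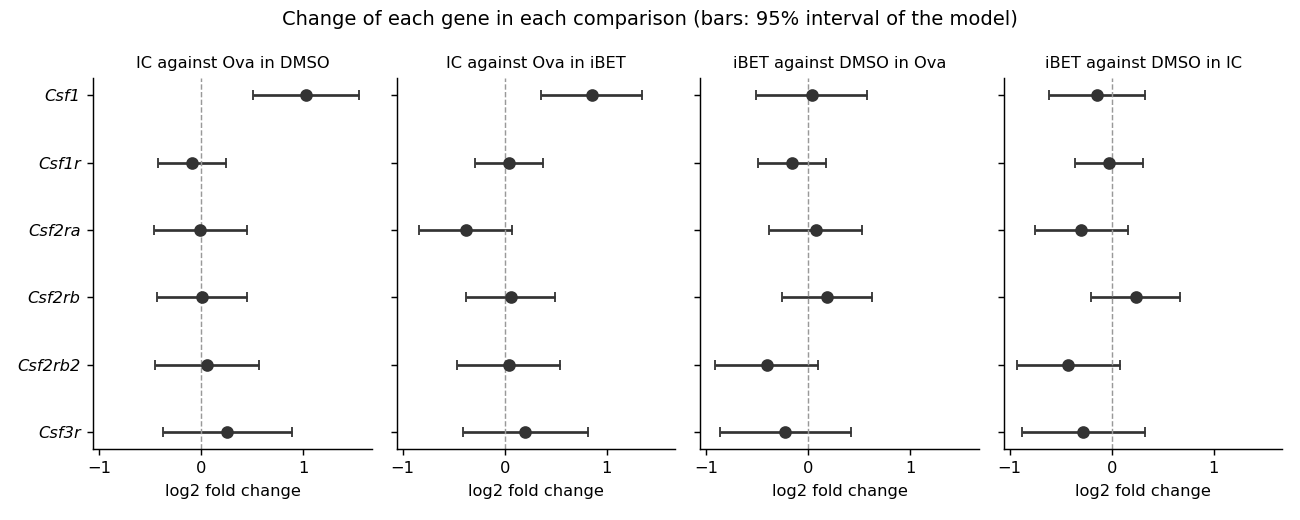
Log2 fold change of each gene in the 4 pairwise comparisons, with 95% intervals from the edgeR model. The Csf1 intervals for IC against Ova lie above 0 (0.51 to 1.55 in DMSO and 0.36 to 1.35 in iBET), and the other 22 intervals include 0.

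The balance of the beta genes varied little within a group. Csf2rb2 made up 49.8%, 49.4% and 50.2% of the counts of the pair in DMSO Ova, for mice A, B and C, and 49.6%, 51.6% and 50.2% in DMSO IC. In iBET Ova the share was 41.4%, 38.9% and 37.8%, and in iBET IC it was 40.5%, 38.6% and 38.6%. All 6 iBET libraries were below all 6 DMSO libraries. Among single genes, 45.1% (Ova) and 48.6% (IC) had drug groups that did not overlap, and no such share was computed for other gene pairs. The library with the fewest counts, DMSO Ova of mouse A, rested on 963 counts, and its 95% Wilson interval was 46.7% to 53.0%, which covers counting error alone.

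The group means were 49.8 ± 0.418% in DMSO Ova, 50.5 ± 1.02% in DMSO IC, 39.4 ± 1.83% in iBET Ova and 39.2 ± 1.09% in iBET IC (SD, n = 3). iBET minus DMSO was -10.4 percentage points in Ova and -11.2 in IC. In each an exact two-sided permutation test gave p = 0.1 (adjusted over 4 comparisons, 0.2), the smallest that 3 against 3 libraries can give. IC minus Ova was 0.66 points in DMSO (exact permutation p = 0.4) and -0.13 points in iBET (exact permutation p = 0.8).

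In an exact permutation added after the data were seen, drug labels were exchanged within the 6 pairs of libraries of the same mouse and stimulation. The mean difference was -10.8 ± 1.82 points (SD over 6 pairs), ranged from -13.0 to -8.47 and was negative in 6 of 6 pairs. The exact permutation gave p = 0.03125, the smallest these exchanges can give. The 6 pairs came from 3 mice, and pairs from 1 mouse are not independent of each other, so this p is smaller than 3 animals alone could give. The same exchange of Ova and IC gave a mean of 0.27 points (p = 0.719, exact permutation). Leaving out mouse A, B or C in turn gave differences between -11.4 and -9.47 points in Ova and between -12.3 and -10.3 in IC. The treatment of reads that align to both genes is not given in the sources used here, and its part in these shares was not tested.

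**Figure D4:**
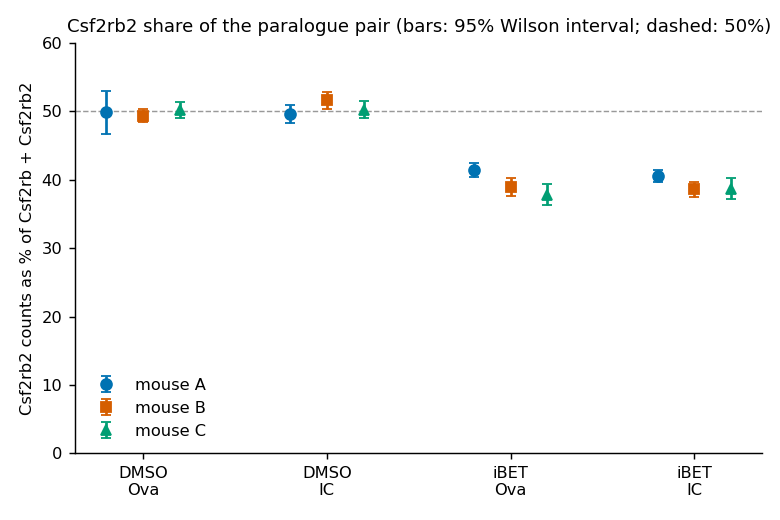
Csf2rb2 counts as a percentage of the Csf2rb and Csf2rb2 counts together, in each of 12 libraries, with 95% Wilson intervals and a dashed line at 50%. The DMSO libraries lie between 49.4% and 51.6% and the iBET libraries between 37.8% and 41.4%.

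Csf3r, the G-CSF receptor, was low in all libraries, with 15 to 143 counts. It measured 7.70, 6.98 and 6.13 CPM in DMSO Ova, 9.17, 8.80 and 6.29 in DMSO IC, 8.41, 4.63 and 4.06 in iBET Ova, and 7.63, 7.46 and 4.67 in iBET IC. Mouse A was highest and mouse C lowest in all 4 groups. The difference with IC was 0.26 in DMSO (-0.38 to 0.89) and 0.20 in iBET (-0.41 to 0.82), and with iBET it was -0.23 in Ova (-0.87 to 0.42) and -0.28 in IC (-0.88 to 0.32). The interval for IC in DMSO runs from 0.770-fold to 1.85-fold.

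Because Csf3r is abundant in neutrophils, their markers were summed in each library (11 of 12 listed markers were in the table). The sum ran from 20.5 to 61.1 CPM and was lowest in mouse A and highest in mouse C in all 4 groups, the reverse of the order of Csf3r. S100a9 (5.55 to 27.6 CPM), Ngp (2.05 to 17.4), Mmp8 (4.51 to 12.2) and Ltf (1.97 to 6.10), all neutrophil granule or cytosol genes, had the highest medians of the list, while 4 of the 11, the precursor genes Elane and Prtn3 together with Retnlg and Cxcr2, stayed under 1 CPM in all libraries. Their part in the Csf3r counts was not tested. Summed dendritic cell markers (9 of 9 in the table) lay between 12.6 and 33.0 CPM and were lowest in mouse C in every group. For neutrophil and dendritic cell markers the ranges of the 4 groups overlapped. The macrophage marker sum was 5696 to 6690 CPM in DMSO Ova, 5797 to 6356 in DMSO IC, 6450 to 7686 in iBET Ova and 6992 to 7652 in iBET IC. With IC the drug groups did not overlap and iBET was higher, a comparison in which 48.6% of all single genes had groups that did not overlap. Lyz2 had by far the highest median of the 10 markers (3395 CPM), so the sum does not speak for each marker. Stromal and endothelial markers, from cells that make much Csf1, summed over 9 genes to 1.38 to 3.60 CPM in DMSO Ova, 1.43 to 1.94 in DMSO IC, 0.926 to 2.43 in iBET Ova and 0.839 to 1.36 in iBET IC, with 6 of the 9 under 1 CPM in every library. The part of these cells in the levels of the 6 genes was not tested. Lymphocyte markers (6 of 6 in the table) reached at most 0.291 CPM, mast cell and basophil markers (5 of 5) at most 0.551 CPM with 4 at 0, and all 5 erythroid markers were at 0. In bulk RNA, fewer cells of a type and less RNA per cell cannot be told apart.

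Except for Il3ra, the other ligands and partner chains were nearly silent. Il34 (the second ligand of Csf1r), Csf2 (GM-CSF), Il3 and Il5ra had no count in any library, Csf3 (G-CSF) had 2 counts and Il5 had 1. Il3ra, the interleukin-3 alpha chain, was the 1 of these 7 genes that passed the filter, at 15.0 ± 0.596 CPM in DMSO Ova, 18.8 ± 0.685 in DMSO IC, 19.0 ± 2.44 in iBET Ova and 18.6 ± 3.39 in iBET IC. It was called in no comparison.

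Of 25 genes for signalling below these receptors, all tested, none was called with IC in either arm by edgeR or DESeq2 (2 in DMSO and 1 in iBET had an unadjusted p under 0.05). With iBET, 8 rose and 2 fell in Ova, and 8 rose and 3 fell in IC, so 40% and 44% were called against 31.3% and 34.8% of all genes. The list was chosen with earlier results of these data known, so these shares are descriptive. The median log2 fold change of the 25 was 0.15 in Ova and 0.19 in IC, beside 0.02 and 0.00 over all genes. Fgr, a Src-family kinase, fell by 2.92 in Ova and fell by 2.63 in IC on the log2 scale. Pik3r1, the regulatory subunit of phosphoinositide 3-kinase, rose by 1.03 and 1.08, and Stat3 by 0.81 and 0.79. Gab1, a docking adaptor, rose by 1.31 in Ova (adjusted p = 0.00428) and had a difference of 0.62 in IC (adjusted p = 0.0984). Jak2 and Stat5a, which act directly below the beta chain, rose in Ova by 0.31 and 0.52, but neither passed there when mouse A's DMSO Ova sample was omitted. In IC, Stat5a rose by 0.44 and Jak2 differed by 0.25 (adjusted p = 0.0626).

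Of 15 negative regulators, 13 were tested, and this list too was chosen with earlier results of these data known. Socs3, an inhibitor of cytokine receptor signalling, rose with IC by 2.64 in DMSO (from 0.908 ± 0.815 to 7.65 ± 2.43 CPM) and by 2.43 in iBET, and no other member was called with IC. With iBET, 2 rose and 3 fell in Ova, and 3 rose and 3 fell in IC, so 38.5% and 46.2% were called against 31.3% and 34.8% of all genes. Their median log2 fold change was 0.09 in Ova and -0.07 in IC, beside 0.02 and 0.00 over all genes. The adaptor Dok2 fell by 1.22 in Ova and fell by 1.21 in IC. Ptpn6, the phosphatase SHP-1 that acts on Csf1r signalling, fell by 0.87 in Ova and fell by 1.12 in IC. Sh2b3, an adaptor that restrains Jak2, rose by 0.76 and 0.92. When mouse A's DMSO Ova sample was omitted, Ptpn6 was no longer called in Ova.

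The likeness of other genes to each member was measured as Pearson's r of log2 CPM over the 12 libraries, among 9422 genes with a mean count of at least 50. These points share libraries and mice, and the values are descriptive. Csf1 was most like Cirh1a (r = 0.92), Cebpb (0.91) and Tlr2 (0.91). Csf2rb2 was most like Cd300lb (0.95), Rasa4 (0.93) and Adcy7 (0.91), and Csf2rb most like Tpcn2 (0.94), Slc29a3 (0.90) and Gorasp1 (0.90). Csf1r was most like Ankrd46 (0.92), Srebf1 (0.92) and Csk (0.91), Csf2ra most like Setd6 (0.92), Zfp652 (0.91) and Dhx32 (0.90), and Csf3r most like Itpkb (0.91), Nat6 (0.89) and, tied because their counts are equal, Mir7676-2 and Mir7676-1 (0.88). No list shared a gene with another, so the members had different nearest genes. Among the members themselves r ran from -0.57 (Csf2ra with Csf1) to 0.70 (Csf2rb2 with Csf3r), and the beta genes had r = 0.46.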

How the data were processed

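Total RNA of 12 BMDM libraries was sequenced. The deposited table holds counts per gene symbol, made by the authors with Trim Galore, HISAT2 (mm10) and featureCounts. The annotation, strand setting and treatment of multiply aligned reads are not given in the sources used here. A read counted at both Csf2rb and Csf2rb2 would move their share toward 50%. A second deposited table holds a normalized signal, which equalled counts divided by DESeq2 size factors (largest relative gap 5.22e-15).

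Counts were filtered (filterByExpr, minimum count 10), scaled by TMM and fitted with edgeR 4.0.16 (R 4.3.3) by quasi-likelihood, with 1 term per group over all 12 libraries. P-values were adjusted by Benjamini-Hochberg over 11468 genes and called at 0.05. Scripts were tested on simulated data. Exonic lengths are unions of annotated exons. Members and gene lists were chosen with earlier results of these data known. Genes named are the members, the 3 largest called changes of each list, the 7 other ligands and chains, the 3 nearest genes to each member and check genes. Others, namely Hmgxb3, Jak2, Stat5a and single markers, were chosen after their values were seen.

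Mice pair the libraries, as the labels give the animal. Deviations from group means correlated between -0.07 and 0.54 (median 0.26) over 18 same-mouse pairs and had a median of -0.13 over 36 other pairs. Alternatives were DESeq2 1.42.0, DESeq2 size factors, 2 other filters, a mouse block, the compared groups alone, 1 surrogate variable (sva 3.50.0), the authors' signal in limma 3.58.1 (pseudocount 1), removal of Rn45s, and omission of each library and each mouse.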

Additional observations from a re-analysis of the deposited data

How the results depend on the processing

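Of 983 recomputed values of single members, 879 kept their direction and their side of the threshold, 84 changed direction, 18 passed the threshold and 2 lost it, and among the values that changed direction the largest in size was 0.36 on the log2 scale. The cause was not tested for any of these changes. In IC against Ova in DMSO, where edgeR called 0 members and 140 genes of the table, DESeq2 called 1 member and 268 genes, mouse as a replicate block 1 and 315, and 1 surrogate variable 1 and 435, the member being Csf1 each time, and the compared groups fitted alone called 5 genes. In IC against Ova in iBET, where 40 genes were called, these fits called 113, 85, 115 and 99, and no member. DESeq2 called 4 genes in the interaction. The average IC contrast (338 genes and 1 member) gave 540 genes with DESeq2, 658 with the replicate block and 841 with the surrogate variable, and the filter of 10 counts in every library removed Csf1 and left 0 members. In the average drug contrast (0 members), DESeq2, its size factors in edgeR, the filter of 10 counts in every library, the replicate block, the authors' signal in limma and removal of Rn45s each called 1, Csf2rb2. The block changed no other call of a member. Leaving out single libraries or mice gave 0 to 1 members and 0 to 159 genes for IC in DMSO, 0 to 305 genes for IC in iBET, 0 to 1 members and 1310 to 3899 genes for the drug in Ova, 1769 to 4469 genes for the drug in IC, 0 to 1 genes for the interaction, 0 to 2 members and 6 to 882 genes for the average IC contrast, and 0 to 2 members and 3529 to 5614 genes for the average drug contrast. The lowest counts came without mouse B (0 genes in each IC comparison, with 600 and 289 at an unadjusted p under 0.05). Csf1 with IC in DMSO ranged from 0.81 to 1.26 over these omissions and was called in 2 of 15, and the Csf2rb2 share difference ranged from -0.12 to 1.12 points for IC in DMSO, -11.4 to -9.47 for the drug in Ova and -12.3 to -10.3 for the drug in IC. Log2 fold changes near 0 changed direction. With 1 surrogate variable these were Csf2ra (0.038) and Csf2rb (-0.026) for IC in DMSO, Csf1r (-0.0074) for IC in iBET and Csf2ra (0.0074) for the average drug contrast. Csf1 for the drug in Ova was -0.0021 with DESeq2, -0.0076 with its size factors, -0.015 with the groups alone and -0.026 in limma. In the interaction Csf3r was 0.042 with the block and 0.046 in limma, and Csf2rb2 was 0.015 in limma. Over the omissions, IC in DMSO ranged from -0.23 to 0.067 for Csf1r, -0.29 to 0.16 for Csf2ra, -0.12 to 0.17 for Csf2rb and -0.085 to 0.20 for Csf2rb2. IC in iBET ranged from -0.028 to 0.16 for Csf1r, -0.12 to 0.20 for Csf2rb, -0.18 to 0.24 for Csf2rb2 and -0.014 to 0.62 for Csf3r. The drug in Ova ranged from -0.067 to 0.20 for Csf2ra, -0.089 to 0.37 for Csf2rb and -0.18 to 0.33 for Csf1, and the drug in IC from -0.21 to 0.092 for Csf1r and -0.35 to 0.068 for Csf1. The interaction ranged from -0.018 to 0.28 for Csf1r, -0.13 to 0.19 for Csf2rb, -0.24 to 0.19 for Csf2rb2, -0.24 to 0.36 for Csf3r and -0.41 to 0.043 for Csf1. The average IC contrast ranged from -0.090 to 0.058 for Csf1r, -0.055 to 0.11 for Csf2rb and -0.060 to 0.15 for Csf2rb2, and the average drug contrast from -0.20 to 0.021 for Csf2ra and -0.25 to 0.20 for Csf1. Csf1 and Csf3r had the fewest counts, 8 and 15 in their smallest library, which limits the precision of single values. Among the gene lists, the replicate block also called Adam17 with IC in DMSO, Maf with IC in iBET and Bcl2a1b and Ccnd1 in the average IC contrast.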

Other observations

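The 17 transcription factors listed as known to act on the receptor genes were chosen with earlier results of these data known. Shares called among them are descriptive, and 15 were tested. With iBET, 6 rose and 5 fell in Ova, and 5 rose and 6 fell in IC, which is 73.3% called in each, against 31.3% and 34.8% of all genes. Their median log2 fold change was 0.03 in Ova and 0.30 in IC. Spi1 (PU.1), long known to act on the Csf1r and Csf2ra genes, fell from 192 ± 24.7 to 66.0 ± 3.26 CPM in Ova (log2 fold change -1.55, SE 0.12, adjusted p = 2.34e-06 in edgeR) and fell by 1.75 in IC. Over the same libraries the Csf1r differences were -0.16 and -0.03, and those of Csf2ra were 0.08 and -0.30. Egr1, an immediate early factor, rose by 2.89 in Ova and 3.03 in IC, whereas Egr2 fell by 2.49 in Ova and fell by 2.87 in IC. Cebpb was the factor called with IC in DMSO, where it rose by 0.71 (adjusted p = 0.0279), and it was no longer called when mouse A's DMSO Ova sample was omitted.

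The 16 genes listed as known to respond to M-CSF or GM-CSF were also chosen with earlier results of these data known. Shares called among them are descriptive, and 14 were tested. With iBET, 2 rose and 5 fell in Ova, and 2 rose and 8 fell in IC, which is 50% and 71.4% called, against 31.3% and 34.8% of all genes. Their median log2 fold change was -0.48 in Ova and -0.44 in IC, beside 0.02 and 0.00 over all genes. Plau, the urokinase-type plasminogen activator, fell by 2.52 in Ova (from 668 ± 94.2 to 116 ± 6.63 CPM) and fell by 2.61 in IC. Myc, the growth-associated factor, fell by 1.72 in Ova and fell by 2.27 in IC. Bcl2a1b, an anti-apoptotic gene with near-identical copies with which it may share reads, fell by 2.94 in Ova and fell by 2.48 in IC. Pim1, a kinase gene downstream of Stat5, rose by 1.10 and 0.89 with iBET, and rose by 0.74 with IC in DMSO. Il1rn, the interleukin-1 receptor antagonist, rose with IC in DMSO by 0.86 (adjusted p = 0.00576), while in iBET the difference was -0.04 (adjusted p = 0.984). The difference between those responses was -0.89, with an adjusted p of 0.701 in edgeR and 0.0447 in DESeq2. When mouse A's DMSO Ova sample was omitted, Pim1 was no longer called with IC in DMSO.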
